A study of Mus musculus with 15 samples.

Results

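Chemokines are small secreted proteins that steer migrating cells, and their receptors are read here together with them as 1 gene set. The set is every row of the deposited expression table whose symbol begins with Ccl, Ccr, Cxcl, Cxcr or Ackr and a digit, or with Cx3c, which gives 67 of 20610 rows and 61 symbols. Of the 67 rows, 45 are ligands and 22 are receptors, 4 of them atypical receptors. Microglia, astrocytes and neurons had been taken by magnetic cell isolation from cortices of male WT (wild-type) mice aged 28 postnatal days, and 5 libraries of polyA RNA were made from each cell type. No library carries a treatment or a mutation. The antibodies or beads used for isolation are not given in the sources used here, and the labels do not say which animals gave which library, so p-values measure the spread between these libraries, which may be partly technical. Libraries are named by cell type and by the replicate number 1 to 5 of the labels.

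Chemokines are grouped by the spacing of their first conserved cysteines into CC, CXC and CX3C ligands, and they signal through G protein-coupled receptors named after the same classes. Atypical receptors (Ackr genes) bind chemokines without classical G protein signalling and take them up or present them. In the brain the textbook pair is the neuronal ligand Cx3cl1 with the microglial receptor Cx3cr1, and Cxcl12 with its receptor Cxcr4 and its scavenger Ackr3 is known for guiding cells in cortical development.

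Values are TPM (transcripts per 1000000), a level per transcript length, so levels can be set beside each other between genes. A TPM table keeps no read depth, so the depth of each library is unknown and no counting interval can be given. Microglia markers summed to 90739 to 138546 TPM in microglia, and to at most 341 TPM in astrocytes and 203 TPM in neurons. Astrocyte markers summed to 22229 to 25496 TPM in astrocytes. Neuron markers summed to 816 to 1738 TPM in neurons, while endothelial markers summed to 142 to 282 TPM in microglia, 1067 to 1842 TPM in astrocytes and 9809 to 14962 TPM in neurons. The libraries labelled neuron thus held more RNA of these endothelial markers than of these neuronal markers. Oligodendrocyte markers summed to 69449, 51578, 6670.2, 250.25 and 8131 TPM in microglia 1 to 5. In such bulk libraries fewer cells of a type and less RNA per cell cannot be told apart.

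The 67 rows together made up 3204 to 5705 TPM of each microglia library, 686 to 777 TPM of each astrocyte library and 576 to 737 TPM of each neuron library. Different genes made up these sums. In microglia Cx3cr1 held 36.5 ± 6.76% of the sum, Ccl6 18.1 ± 1.30% and Ccl12 12.1 ± 4.46% (mean ± SD, n = 5). In astrocytes the CXC ligand Cxcl14 alone held 53.5 ± 5.07%. In neurons the largest shares were those of 1 row of Ccl27a at 28.8 ± 9.84%, of the scavenger Ackr3 at 17.4 ± 3.56% and of Cxcl12 at 14.6 ± 3.07%. Ligands summed to 2470.5 ± 582 TPM in microglia, 674 ± 38.8 TPM in astrocytes and 501 ± 71.7 TPM in neurons. Receptors summed to 1714 ± 588 TPM in microglia, 45.1 ± 12.3 TPM in astrocytes and 131 ± 18.5 TPM in neurons.

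Of the 67 rows, 36 reached at least 1 TPM in at least 5 libraries and were tested, and 31 did not. Among the 36 tested rows the highest mean was in microglia for 20, in astrocytes for 3 and in neurons for 13. Only Ccr1, Ccr2, Ccr6 and Cxcr3 reached 1 TPM in microglia libraries alone, and they passed the filter through those libraries. Each of 11 rows reached 1 TPM in all 15 libraries.

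**Figure D1:**
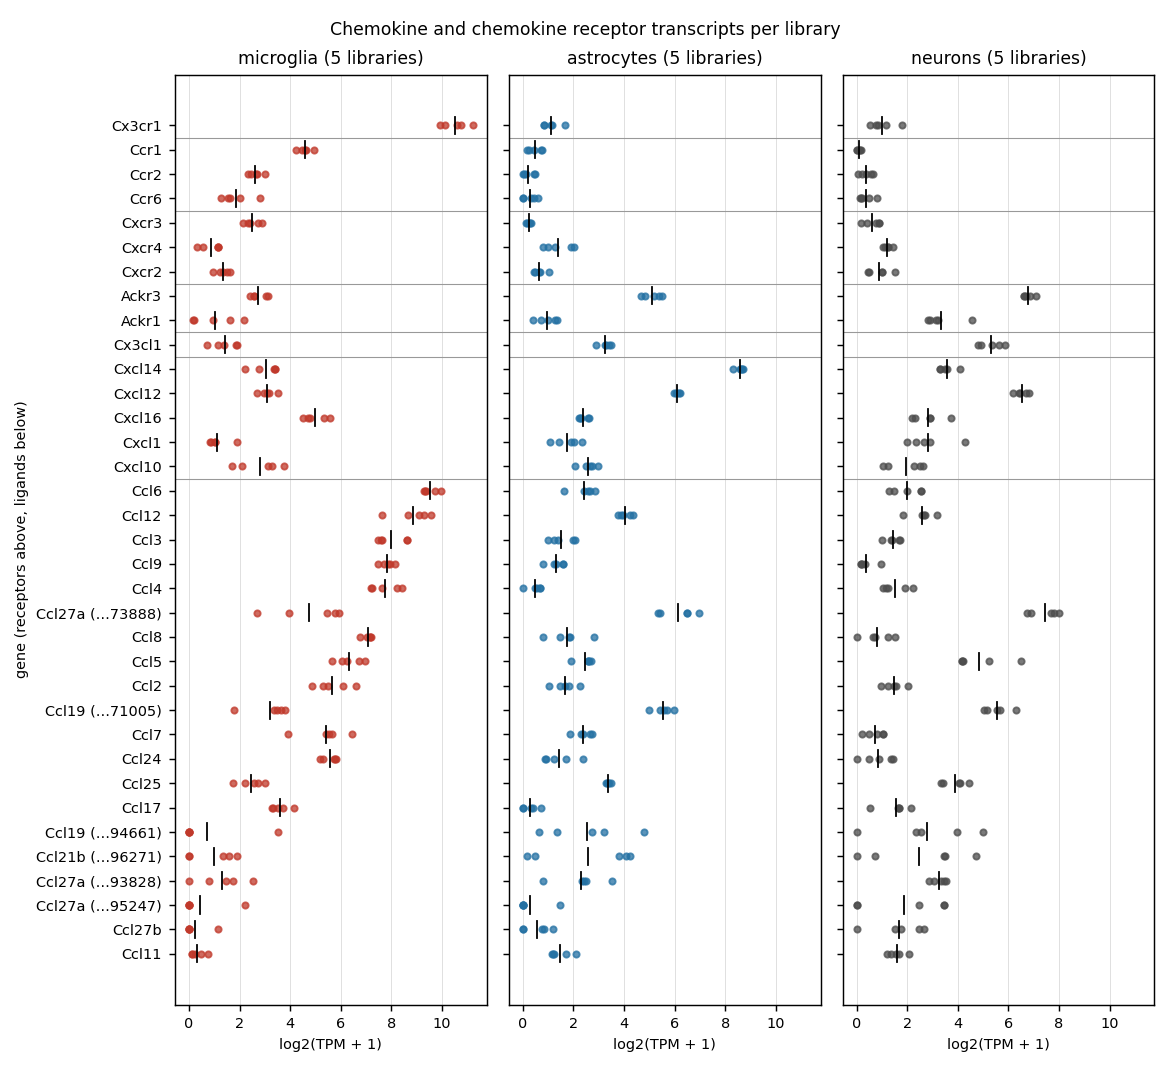
Level of 35 of the 36 tested rows on a log2(TPM + 1) axis, with 1 point per library, a black bar at the mean, and panels for microglia, astrocytes and neurons; rows that share a symbol carry the end of their Ensembl identifier. Cx3cr1 and most CC ligands lie far to the right in microglia, and Cxcl14 in astrocytes. Ackr3, Cx3cl1 and 1 row of Ccl27a have their highest means in neurons, and Cxcl12 lies far to the right in both astrocytes and neurons.

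The first question the design poses for these genes is which of them separate microglia from the other cells. Differences were tested in limma on log2(TPM + 1), and a gene was called when its Benjamini-Hochberg adjusted p over all 13351 tested genes was below 0.05 and its difference at least 1 on the log2 scale. Against neurons, 18 rows were higher in microglia, where 9.74% of all tested genes were called higher, and 11 were lower, where 29.5% of all genes were. Against astrocytes, 18 rows were higher in microglia, with 10.2% of all genes called higher, and 8 were lower, with 32.3% of all genes called lower. The same 18 rows were higher against both, among them the receptors Cx3cr1, Ccr1, Ccr2, Ccr6 and Cxcr3, the CC ligands Ccl2, Ccl3, Ccl4, Ccl5, Ccl6, Ccl7, Ccl8, Ccl9, Ccl12, Ccl17 and Ccl24, and the CXC ligand Cxcl16. Because Ccr1, Ccr2, Ccr6 and Cxcr3 passed the filter through microglia libraries alone, their direction and lack of overlap followed from the filter. The counts higher in microglia include them. The ranges of the groups did not overlap for 17 members higher in microglia than in neurons, against 12.1% of all genes, and for 18 higher in microglia than in astrocytes, against 12.5% of all genes. They did not overlap either for 10 rows lower in microglia than in neurons (42.3% of all genes) and 7 lower in microglia than in astrocytes (45.9% of all genes). Between astrocytes and neurons, 3 rows were higher in astrocytes, with 12.7% of all genes called higher, and 10 were lower, with 12.9% of all genes called lower. That last count was 6 without astrocyte 3, without astrocyte 4 or without neuron 2, and the count higher in astrocytes was 5 without neuron 1. The ranges did not overlap for 4 rows higher in astrocytes than in neurons (20.2% of all genes) and 5 lower (18.8% of all genes).

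The median log2 difference of the 36 rows was 1.16 for microglia minus neurons, 1.13 for microglia minus astrocytes and -0.13 for astrocytes minus neurons, beside -0.48, -0.57 and 0.03 over all tested genes. Scaling by the median of ratios moved the medians over all genes to 0.02, -0.02 and -0.03, and those of the 36 rows to 1.60, 1.5 and -0.17. No called difference of a member changed its sign under that scaling or under quantile normalization, but the count lower in microglia than in astrocytes was 5 under either, with Ccl11 and 2 rows of Ccl27a no longer called. Without microglia 1 and 2, which held the most oligodendrocyte RNA, the counts higher in microglia were 18 against neurons and 18 against astrocytes.

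**Figure D2:**
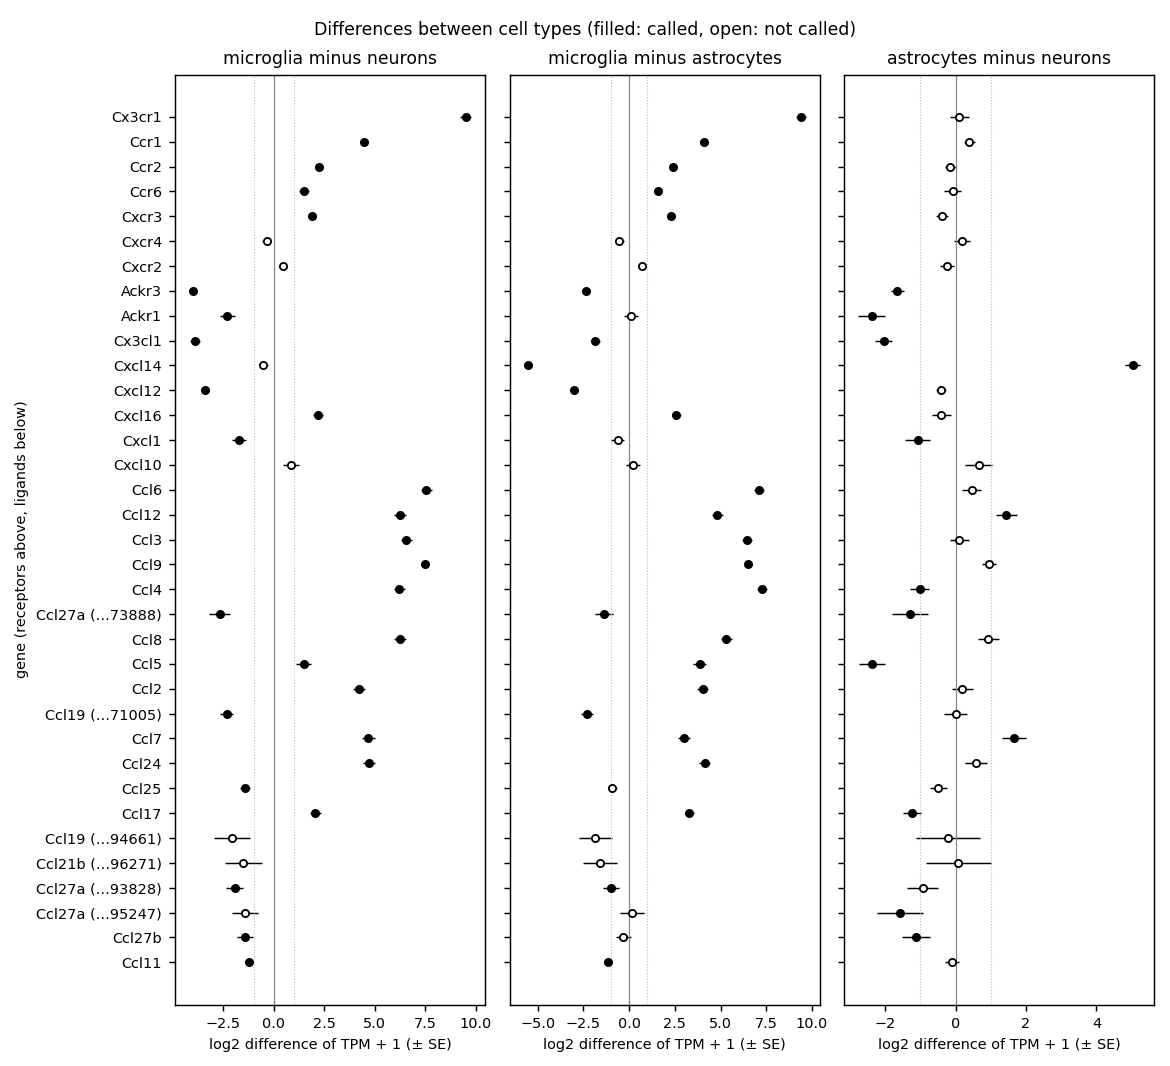
Log2 difference of TPM + 1 between cell types for 35 of the 36 tested rows (point, with a bar of 1 standard error), for microglia minus neurons, microglia minus astrocytes and astrocytes minus neurons; filled points were called, open points were not, and dotted lines mark a difference of 1. The receptors Cx3cr1 and Ccr1 and most CC ligands lie right of the lines in both microglia panels, whereas Cxcl14 stands alone at 5.03 in the third panel.

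Among the CC ligands the highest level was that of Ccl6, a rodent chemokine of macrophages and granulocytes. Ccl6 had 649.8, 617, 842, 986 and 655 TPM in microglia 1 to 5, 2.11 to 6.24 TPM in astrocytes and 1.43 to 4.90 TPM in neurons. Every microglia library lay far above every other library. The difference was 7.56 ± 0.26 against neurons (SE, limma adjusted p = 6.29e-14) and 7.10 ± 0.26 against astrocytes (adjusted p = 1.15e-13). Ccl9, its neighbour on chromosome 11 and like Ccl6 a ligand of Ccr1 in mice, had 175 to 281 TPM in microglia, 0.74 to 2.00 TPM in astrocytes and 0.12 to 0.94 TPM in neurons. Its difference was 7.46 ± 0.20 against neurons and 6.52 ± 0.20 against astrocytes.

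Ccl3 and Ccl4 are the macrophage inflammatory proteins, which attract monocytes and T cells. Ccl3 had 178, 189.85, 386, 389 and 199 TPM in microglia 1 to 5, 0.97 to 3.12 TPM in astrocytes and 1.01 to 2.24 TPM in neurons. Ccl4 had 144, 147, 296, 339 and 196 TPM in microglia 1 to 5, 0.00 to 0.62 TPM in astrocytes and 1.04 to 3.64 TPM in neurons. Both genes were higher in microglia 3 and 4 than in the other 3 microglia libraries, and the ratio of Ccl4 to Ccl3 stayed between 0.765 and 0.983. Ccl3 differed by 6.56 ± 0.26 against neurons and by 6.46 ± 0.26 against astrocytes, and Ccl4 by 6.22 ± 0.27 and 7.24 ± 0.27. Ccl4 was also lower in astrocytes than in neurons by 1.02 ± 0.27 (adjusted p = 0.00429), just past the fold threshold, and the difference was -0.90, -0.84 or -0.92 without astrocyte 3, neuron 2 or neuron 4.

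Ccl2, Ccl7 and Ccl12 are ligands of Ccr2, the receptor that draws monocytes, and Ccl8 is the fourth microglial ligand of the same gene cluster. Ccl12 had 398, 551, 748.5, 624 and 196 TPM in microglia 1 to 5, 12.4 to 19.6 TPM in astrocytes and 2.56 to 7.94 TPM in neurons. Ccl2 had 38.2, 44.0, 97.0, 66.9 and 27.7 TPM in microglia 1 to 5, 1.02 to 3.84 TPM in astrocytes and 0.95 to 3.11 TPM in neurons. Ccl7 had 42.2, 48.9, 86.8, 44.9 and 14.2 TPM in microglia 1 to 5, 2.64 to 5.63 TPM in astrocytes and 0.17 to 1.06 TPM in neurons. All 3 genes were highest in microglia 3 and lowest in microglia 5. Against neurons they were higher in microglia by 6.25 ± 0.30 (Ccl12), 4.21 ± 0.30 (Ccl2) and 4.68 ± 0.34 (Ccl7). Against astrocytes the differences were 4.81 ± 0.30 (Ccl12), 4.02 ± 0.30 (Ccl2) and 3.02 ± 0.34 (Ccl7). Ccl8 had 107, 142, 141, 130.07 and 147 TPM in microglia 1 to 5, 0.72 to 6.02 TPM in astrocytes and 0.00 to 1.86 TPM in neurons, and in contrast to the other 3 genes its highest microglia value was in library 5. It differed by 6.24 ± 0.31 against neurons and by 5.31 ± 0.31 against astrocytes.

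Ccl12 and Ccl7 were also higher in astrocytes than in neurons, by 1.44 ± 0.30 (adjusted p = 0.000534) and 1.67 ± 0.34 (adjusted p = 0.000440). Microglia markers summed to 241 to 341 TPM in astrocytes and 123 to 203 TPM in neurons, and their part in these differences was not tested. Border macrophage markers, those of macrophages at the surface and vessels of the brain, summed to 1296 to 1922 TPM in microglia, 45.7 to 77.7 TPM in astrocytes and 35.4 to 60.3 TPM in neurons, with 9 of 9 at or above 1 TPM in every microglia library. Most of the microglia sum was Pf4, itself a chemokine, which averaged 1003 TPM where the whole list averaged 1463 TPM. The part of border macrophages in the microglial levels of the CC ligands was not tested.

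The regions before 3 of these genes and before Cxcl14, the leading astrocyte member, show the DNA from which the contrasting transcripts start. They are the 250 bases before the annotated start in RefSeq on GRCm38.p6: chr11:82101595-82101844 on the plus strand for Ccl12, chr11:82114935-82115184 on the plus strand for Ccl8, chr11:83649379-83649628 on the minus strand for Ccl3 and chr13:56296552-56296801 on the minus strand for Cxcl14. Each is written 5′ to 3′ in the direction of the gene. Capitals mark GAGGAA (or its reverse complement TTCCTC), the core that the myeloid factor PU.1 binds, and TATAAA, the TATA box.
Ccl12: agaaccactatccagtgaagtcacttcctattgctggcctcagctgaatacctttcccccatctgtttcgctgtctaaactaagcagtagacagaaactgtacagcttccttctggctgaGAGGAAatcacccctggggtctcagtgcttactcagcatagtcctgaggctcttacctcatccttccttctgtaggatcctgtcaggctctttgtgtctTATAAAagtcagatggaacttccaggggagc
Ccl8: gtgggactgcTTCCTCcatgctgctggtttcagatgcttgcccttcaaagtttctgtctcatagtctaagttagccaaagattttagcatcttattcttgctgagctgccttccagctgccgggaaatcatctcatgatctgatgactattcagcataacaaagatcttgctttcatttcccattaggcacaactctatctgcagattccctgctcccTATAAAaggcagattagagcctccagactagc
Ccl3: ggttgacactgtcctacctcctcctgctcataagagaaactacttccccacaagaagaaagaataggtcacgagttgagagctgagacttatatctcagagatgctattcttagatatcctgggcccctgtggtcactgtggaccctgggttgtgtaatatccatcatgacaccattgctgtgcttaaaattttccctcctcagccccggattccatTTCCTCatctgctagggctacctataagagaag
Cxcl14: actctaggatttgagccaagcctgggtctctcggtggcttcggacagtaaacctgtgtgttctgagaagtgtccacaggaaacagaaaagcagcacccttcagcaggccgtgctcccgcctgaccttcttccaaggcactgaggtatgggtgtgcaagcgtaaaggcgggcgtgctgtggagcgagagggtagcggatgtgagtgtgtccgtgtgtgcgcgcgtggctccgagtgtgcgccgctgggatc
Between TATAAA and the start lie 25 bases in Ccl12 and 26 in Ccl8, and between TTCCTC and the start lie 27 bases in Ccl3. The Cxcl14 window holds none of these letters on either strand. These 4 windows do not stand for the rest. Of 13 genes with windows that were highest in microglia, 8 held GAGGAA on either strand, among them the 3 shown. The windows of Ccl6, Ccl9, Ccr2, Cx3cr1 and Cxcl10 did not. Of 12 genes highest in astrocytes or neurons, 3 held it: Ccl27a, Ccl27b and Cx3cl1.

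Promoter windows were found for 45 of the 61 symbols, and for 25 of the 33 symbols tested. On either strand, GAGGAA was in 23.2% of all 32851 windows of that length in the table, in 57.1% of the 14 windows of members highest in microglia and in 27.8% of the 18 windows of members highest in astrocytes or neurons. TATAAA was in 12.4% of all windows, 21.4% of those of the microglial members and 27.8% of those of the others. The loose NF-kB core (3 G, then 5 bases of any kind, then 2 C) was in 45.8% of all windows, 50.0% of those of the microglial members and 33.3% of those of the others. GAGGAAGT, which contains GAGGAA, was in 2.44% of all windows and in 1 member's window, that of Cxcr3. The sets are small and these matches are descriptions of the letters.

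Apart from Ccl17 on chromosome 8 and Ccl24 on chromosome 5, the CC ligands called higher in microglia lie in 2 clusters on chromosome 11. From the left end, the first cluster runs through Ccl2, Ccl7, Ccl11, Ccl12, Ccl8 and Ccl1 (chromosome 11, 82035571 to 82305690 in GENCODE vM21 on mm10). Ccl11, the eotaxin that attracts eosinophils, lies between Ccl7 and Ccl12, and had 0.07 to 0.68 TPM in microglia, 1.2 to 3.26 TPM in astrocytes and 1.31 to 3.18 TPM in neurons. It was lower in microglia by 1.25 ± 0.21 against neurons (adjusted p = 3.46e-05), while its neighbours Ccl7 and Ccl12 were higher there. That difference was -0.70 under quantile normalization, which ended the call. Against astrocytes it was lower by 1.15 ± 0.21 (adjusted p = 7.97e-05), and by 0.99 without astrocyte 4, which ended the call. Ccl1, at the other end, was listed at 0 in all astrocyte and neuron libraries and had at most 0.29 TPM in microglia. In the second cluster, Ccl5, Ccl9, Ccl6, Ccl3 and Ccl4 were all higher in microglia.

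**Figure D3:**
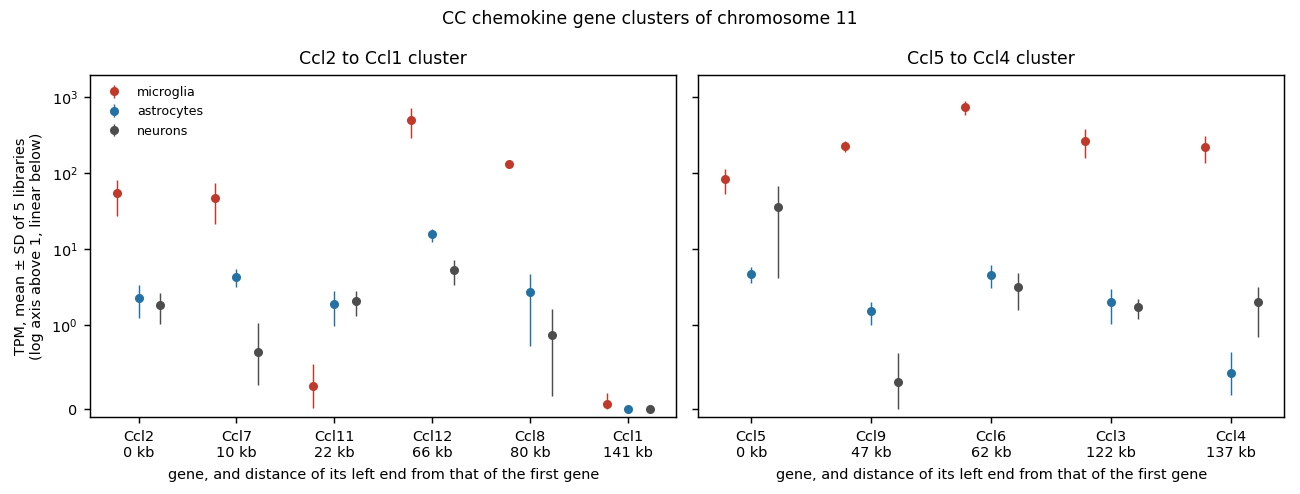
Mean TPM with SD of 5 libraries for the genes of the 2 CC ligand clusters on chromosome 11, in the order in which they lie, with the distance of each gene's left end from that of the first in kilobases; the axis is logarithmic above 1 TPM and linear below it. Ccl11 and Ccl1 have microglia means of 0.27 and 0.06 TPM between and beside neighbours at 47.4 to 504 TPM.

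Ccl24, an eotaxin that binds Ccr3, had 35.5 to 54.5 TPM in microglia, 0.81 to 4.14 TPM in astrocytes and 0.00 to 1.68 TPM in neurons. The differences were 4.73 ± 0.30 against neurons and 4.15 ± 0.30 against astrocytes. Its receptor Ccr3 stayed below the filter, with at most 1.18 TPM in microglia. Ccl17, a ligand of Ccr4, had 16.6, 10.4, 8.59, 9.05 and 12.1 TPM in microglia 1 to 5, 0.00 to 0.65 TPM in astrocytes and 0.46 to 3.43 TPM in neurons. It was higher in microglia by 2.05 ± 0.25 against neurons and 3.30 ± 0.25 against astrocytes, and lower in astrocytes than in neurons by 1.25 ± 0.25 (adjusted p = 0.000489). The other ligand of Ccr4, Ccl22, never reached 1 TPM, and Ccr4 reached 1.02 TPM in 1 astrocyte library at most.

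Ccl5, a chemokine of activated T cells and natural killer cells, was called higher in microglia than in neurons although the 2 groups overlapped. Ccl5 had 64.5, 123, 49.2, 106 and 74.6 TPM in microglia 1 to 5, 2.69, 5.16, 5.55, 4.98 and 4.92 TPM in astrocytes 1 to 5, and 17.6, 89.5, 16.7, 36.9 and 16.9 TPM in neurons 1 to 5. The value of neuron 2 lay above those of microglia 1, 3 and 5. The log2 difference was 1.47 ± 0.38 for microglia minus neurons (adjusted p = 0.00222), 3.85 ± 0.38 for microglia minus astrocytes (adjusted p = 5.37e-08) and -2.38 ± 0.38 for astrocytes minus neurons (adjusted p = 3.88e-05).

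Nkg7, a granule gene of cytotoxic lymphocytes, is given beside Ccl5. It had 16.3, 41.8, 17.2, 38.3 and 33.2 TPM in microglia 1 to 5, 0.87 to 3.27 TPM in astrocytes, and 8.79, 42.9, 11.2, 23.0 and 7.74 TPM in neurons 1 to 5. Neuron 2 was the highest neuron library for both genes, and neuron 4 came next. Microglia 2 was likewise the highest microglia library for both, and microglia 4 came next, but the lowest was microglia 3 for Ccl5 and microglia 1 for Nkg7. In astrocytes the order differed, and astrocyte 2 had 5.16 TPM of Ccl5 with 0.87 TPM of Nkg7. The ratio of Ccl5 to Nkg7 was 2.25 to 3.96 in microglia, 1.30 to 5.93 in astrocytes and 1.49 to 2.19 in neurons. The lymphocyte marker list, which holds Nkg7 itself, summed to 66.0, 103, 102, 148 and 103 TPM in microglia 1 to 5. It summed to 4.43 to 11.9 TPM in astrocytes and to 43.4, 69.9, 34.6, 73.1 and 21.3 TPM in neurons 1 to 5. The list was thus highest in microglia 4 and neuron 4, not in microglia 2 and neuron 2. Of its 12 measured genes, 2 were at or above 1 TPM in every microglia library and 5 in every neuron library. The part of lymphocytes in the Ccl5 values was not tested.

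**Figure D4:**
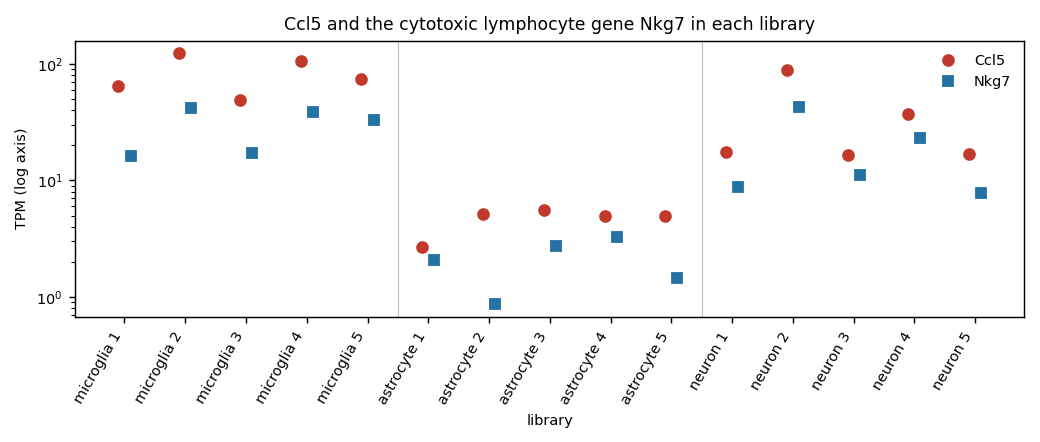
TPM of Ccl5 (circles) and of the cytotoxic lymphocyte gene Nkg7 (squares) in each of the 15 libraries on a logarithmic axis. Neuron 2, with 89.5 TPM of Ccl5 and 42.9 TPM of Nkg7, stands above the other neuron libraries for both genes.

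The homeostatic CC ligands, which guide lymphocytes through lymph nodes, gut and skin, were not microglial. Ccl25, the ligand of Ccr9 in thymus and gut, had 2.31 to 6.96 TPM in microglia, 8.76 to 10.2 TPM in astrocytes and 9.09 to 21.0 TPM in neurons. It was lower in microglia than in neurons by 1.42 ± 0.24 (adjusted p = 4.09e-05), a call lost under both scalings, with differences of -0.89 and -0.94. Against astrocytes its difference of -0.92 ± 0.24 stayed short of the fold threshold. The Ccl25 locus overlaps Elavl1 on the other strand, and the strandedness of counting is not given in the sources used here.

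Ccl27a, a skin chemokine and ligand of Ccr10, has 3 rows that share the symbol. The row with identifier ENSMUSG00000073888 had 53.7, 59.99, 14.4, 5.37 and 42.5 TPM in microglia 1 to 5, 87.6, 123, 39.6, 41.4 and 88.3 TPM in astrocytes 1 to 5, and 223, 258, 118, 106 and 207 TPM in neurons 1 to 5. In all 3 cell types libraries 3 and 4 were the lowest. Oligodendrocyte markers were also lowest there, with 6670.2 and 250.25 TPM in microglia 3 and 4 and 637 and 454 TPM in astrocytes 3 and 4, while in neurons they summed to 8389, 10291, 127, 158 and 1524 TPM in libraries 1 to 5. The part of oligodendrocyte RNA in this row was not tested. The row was lower in microglia by 2.68 ± 0.52 against neurons (adjusted p = 0.000170) and by 1.38 ± 0.52 against astrocytes (adjusted p = 0.0235), and the groups overlapped between microglia and astrocytes. The second call was lost without microglia 3 (adjusted p = 0.0623), microglia 4 (0.0633) or astrocyte 2 (0.0644). In astrocytes the row was lower than in neurons by 1.30 ± 0.52 (adjusted p = 0.0409), a call lost without astrocyte 3 or 4 or neuron 1, 2 or 5, with adjusted p of 0.0763 to 0.104. In GENCODE vM21 this locus (chromosome 4, 41769467 to 41774247, minus strand) overlaps Il11ra1 on the other strand, and whether counting used strand is not given in the sources used here. Il11ra1 ends at 41769474, so the 2 genes share only their last few bases. Without strand, only reads from that stretch cannot be told apart.

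The other rows of that family were low. The second row of Ccl27a, ENSMUSG00000093828, had 0.00 to 4.70 TPM in microglia, 0.73 to 10.4 TPM in astrocytes and 6.25 to 10.4 TPM in neurons. It was called lower in microglia by 1.95 ± 0.44 against neurons (adjusted p = 0.000704) and by 1.01 ± 0.44 against astrocytes (adjusted p = 0.0464). The second call held only without microglia 1, microglia 2 or astrocyte 3, and its adjusted p without any other single library was 0.0509 to 0.144. The third row, ENSMUSG00000095247, was listed at 0 in 4 microglia libraries, 4 astrocyte libraries and 2 neuron libraries, and reached 10.1 TPM in neuron 3. It was lower in astrocytes than in neurons by 1.58 ± 0.65 (adjusted p = 0.0477), a call that 10 of the 15 single libraries undid when left out, with adjusted p of 0.0510 to 0.139. Ccl27b had 0.00 to 1.21 TPM in microglia, 0.00 to 1.26 TPM in astrocytes and 0.00 to 5.25 TPM in neurons. It was lower in microglia than in neurons by 1.44 ± 0.40 (adjusted p = 0.00383) and lower in astrocytes than in neurons by 1.12 ± 0.40 (adjusted p = 0.0246). The second of these was lost without astrocyte 3 or 4 or neuron 1 or 2, with adjusted p of 0.0636 to 0.0769. The longest stretch shared between transcripts of Ccl27a and Ccl27b was 119 nt, so how the authors' counting split reads among these rows is uncertain.

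Ccl19 and the Ccl21 genes, ligands of Ccr7, also have copies. The row of Ccl19 placed on chromosome 4, ENSMUSG00000071005, had 10.1, 12.97, 9.22, 2.42 and 11.4 TPM in microglia 1 to 5, 30.7 to 61.4 TPM in astrocytes and 32.1 to 77.7 TPM in neurons. No microglia library reached the lowest astrocyte or neuron library, and the differences were -2.33 ± 0.33 against neurons and -2.33 ± 0.33 against astrocytes. This locus overlaps 4930578G10Rik on the other strand. The Ccl19 copy ENSMUSG00000094661 was listed at 0 in 4 microglia libraries and reached 26.4 TPM in astrocytes and 30.6 TPM in neurons. That copy was not called for microglia minus neurons (-2.06 ± 0.90, adjusted p = 0.0504), but was with the replicate number as a block (adjusted p = 0.0148). Against astrocytes that copy was not called either (-1.84 ± 0.90, adjusted p = 0.0743). The adjusted p with the block was 0.0245 there, although the labels state no pairing. Of the Ccl21 rows only 1 of Ccl21b passed the filter, with 0.00 to 2.73 TPM in microglia, 0.13 to 17.9 TPM in astrocytes and 0.00 to 25.1 TPM in neurons, and it was not called in any comparison.

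Cxcl14 was the leading astrocyte member. It is a CXC chemokine of epithelia and brain. Cxcl14 had 9.29, 9.59, 5.73, 3.66 and 9.62 TPM in microglia 1 to 5, 418, 314, 409, 387 and 396 TPM in astrocytes 1 to 5, and 8.93, 10.2, 8.88, 10.8 and 16.2 TPM in neurons 1 to 5. The lowest astrocyte library lay far above the highest of the others. The difference was 5.03 ± 0.22 for astrocytes minus neurons (adjusted p = 2.38e-12) and -5.56 ± 0.22 for microglia minus astrocytes (adjusted p = 2.01e-13). Microglia and neurons differed by -0.52 ± 0.22, short of the fold threshold.

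Cxcl12, the ligand of Cxcr4 and Ackr3, had 6.76, 7.92, 10.5, 5.46 and 7.47 TPM in microglia 1 to 5, 62.4, 67.3, 73.6, 64.8 and 71.3 TPM in astrocytes 1 to 5, and 71.7, 87.8, 101, 113 and 85.0 TPM in neurons 1 to 5. Microglia were far below both other cell types, whose ranges overlapped. Cxcl12 was lower in microglia by 3.43 ± 0.15 against neurons (adjusted p = 1.56e-12) and by 3.02 ± 0.15 against astrocytes (adjusted p = 6.58e-12). Between astrocytes and neurons the difference of -0.41 ± 0.15 stayed short of the fold threshold. Mural cell markers, those of the pericytes and smooth muscle of vessels, summed to 109 to 276 TPM in microglia, 1935 to 2638 TPM in astrocytes and 3028 to 5648 TPM in neurons. The part of vascular cells, mural or endothelial, in Cxcl12 was not tested.

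The other CXC ligands were low to moderate. Cxcl16, a membrane-tethered ligand of Cxcr6, had 21.4, 26.8, 39.3, 46.6 and 25.2 TPM in microglia 1 to 5, 3.71 to 5.13 TPM in astrocytes and 3.5 to 12.3 TPM in neurons. It was higher in microglia by 2.18 ± 0.26 against neurons and by 2.59 ± 0.26 against astrocytes, and its locus overlaps Zmynd15 on the other strand. Cxcl1, which attracts neutrophils through Cxcr2, had 0.79 to 2.74 TPM in microglia, 1.09 to 4.07 TPM in astrocytes, and 4.06, 5.24, 18.3, 6.53 and 3.02 TPM in neurons 1 to 5. It was lower in microglia than in neurons by 1.71 ± 0.35 (adjusted p = 0.000327) and lower in astrocytes than in neurons by 1.08 ± 0.35 (adjusted p = 0.0153), the second of these a call lost without astrocyte 4 (-0.91) or neuron 3 (-0.72). Cxcl10, the interferon-induced ligand of Cxcr3, had 2.2 to 12.5 TPM in microglia, 3.16 to 6.77 TPM in astrocytes and 1.07 to 5.14 TPM in neurons, and was not called in any comparison. Its difference of 0.85 ± 0.38 for microglia minus neurons was 1.35 under median-of-ratios scaling and 1.39 under quantile normalization, and was called under both. It was also called without microglia 1 (1.02), microglia 5 (1.13) or neuron 3 (1.02). Its locus lies within Art3 on the other strand.

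Cx3cl1, the CX3C ligand tethered to the neuronal membrane and shed from it, had 2.64, 2.77, 1.23, 0.63 and 1.64 TPM in microglia 1 to 5, 6.40, 9.71, 8.80, 10.2 and 8.50 TPM in astrocytes 1 to 5, and 29.3, 26.5, 48.6, 40.3 and 57.8 TPM in neurons 1 to 5. The 3 ranges did not overlap, with the libraries labelled neuron at the top and microglia at the bottom. The part of endothelial cells, whose markers exceeded the neuronal markers in those libraries, was not tested. The difference was -3.91 ± 0.25 for microglia minus neurons (adjusted p = 1.81e-10), -1.86 ± 0.25 for microglia minus astrocytes (adjusted p = 2.54e-06) and -2.05 ± 0.25 for astrocytes minus neurons (adjusted p = 1.70e-06).

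Cx3cr1, the receptor of Cx3cl1 and a marker of microglia, was the most abundant member. Cx3cr1 had 1106, 976, 1548, 2367 and 1732 TPM in microglia 1 to 5, 0.78 to 2.21 TPM in astrocytes and 0.45 to 2.48 TPM in neurons. Every microglia library lay far above every astrocyte and neuron library. The difference was 9.502 ± 0.26 against neurons (adjusted p = 2.50e-15) and 9.39 ± 0.26 against astrocytes (adjusted p = 3.05e-15). Microglia 1 and 2, the libraries with 69449 and 51578 TPM of oligodendrocyte markers, were its 2 lowest microglia libraries. This order was not particular to Cx3cr1. Of the 991 genes called higher in microglia than in both other cell types, 56.5% were lowest in microglia 1 and 27.1% in microglia 2.

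Ccr1 binds Ccl3, Ccl5, Ccl6 and Ccl9. Ccr1 had 17.9, 23.1, 23.4, 29.8 and 21.3 TPM in microglia 1 to 5, 0.13 to 0.71 TPM in astrocytes and 0.00 to 0.12 TPM in neurons. Every microglia library lay far above every other library. That order followed from the filter, which Ccr1 passed through microglia libraries alone. Ccr1 was higher in microglia by 4.48 ± 0.16 against neurons (adjusted p = 8.77e-14) and by 4.10 ± 0.16 against astrocytes (adjusted p = 2.10e-13). Its ligands Ccl3, Ccl6 and Ccl9 were also called higher in microglia than in both other cell types.

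Ccr2, the receptor of Ccl2, Ccl7 and Ccl12 and a marker of monocytes, had 4.41, 3.96, 5.36, 7.08 and 5.27 TPM in microglia 1 to 5, 0.00 to 0.39 TPM in astrocytes and 0.03 to 0.56 TPM in neurons. It was higher in microglia by 2.25 ± 0.16 against neurons (adjusted p = 1.37e-09) and by 2.40 ± 0.16 against astrocytes (adjusted p = 4.30e-10). Because Ccr2 passed the filter through microglia libraries alone, its direction and lack of overlap followed from the filter. Receptor genes of this family share stretches of sequence, so the Ccr2 values are uncertain. The monocyte and neutrophil marker list, which holds Ccr2 itself, summed to 379 to 1049 TPM in microglia, 7.38 to 34.5 TPM in astrocytes and 96.4 to 171 TPM in neurons. In microglia that sum was mainly S100a8 at 272 ± 81.3 TPM and S100a9 at 405 ± 134 TPM. The part of blood myeloid cells in Ccr2 was not tested.

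Ccr6, a receptor of B and T cell subsets, had 2.04, 1.93, 3.08, 5.91 and 1.39 TPM in microglia 1 to 5, and 0.00 to 0.51 TPM in astrocytes and 0.10 to 0.73 TPM in neurons. Cxcr3, a receptor of activated T cells, had 3.41, 4.03, 5.69, 6.44 and 4.31 TPM in microglia 1 to 5, 0.08 to 0.26 TPM in astrocytes and 0.12 to 0.85 TPM in neurons. Both were highest in microglia 4 and called higher in microglia, Ccr6 by 1.49 ± 0.23 and Cxcr3 by 1.89 ± 0.17 against neurons, and by 1.57 ± 0.23 and 2.28 ± 0.17 against astrocytes. Since both passed the filter through microglia libraries alone, this direction and the lack of overlap followed from the filter. Ccr2, Ccr6 and Cxcr3 dropped out of the test when 5 TPM in 5 libraries was asked for. The neutrophil receptor Cxcr2 had 0.94 to 2.09 TPM in microglia, 0.37 to 1.03 TPM in astrocytes and 0.36 to 1.87 TPM in neurons, and was not called. Its difference of 0.68 ± 0.20 for microglia minus astrocytes was 1.05 under median-of-ratios scaling, 1.24 under quantile normalization and 1.29 with a pseudocount of 0.1, and was called under each. For microglia minus neurons it was 0.44 ± 0.20, and a called 1.02 under quantile normalization.

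Cxcr4, the signalling receptor of Cxcl12, was low in all 3 cell types. Cxcr4 had 0.45, 1.23, 1.18, 1.19 and 0.26 TPM in microglia 1 to 5, 0.74, 1.4, 3.07, 2.7 and 1 TPM in astrocytes 1 to 5, and 1.05 to 1.7 TPM in neurons. The groups overlapped in each comparison and none was called. Ackr3, which takes up Cxcl12 without G protein signalling, was in contrast among the leading members of neurons. It had 4.28, 7.24, 7.77, 4.88 and 4.96 TPM in microglia 1 to 5, 27.7, 24.7, 40.4, 43.7 and 35.1 TPM in astrocytes 1 to 5, and 97.8, 102.5, 113, 135 and 96.2 TPM in neurons 1 to 5. The 3 ranges did not overlap.

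Ackr3 differed by -4.03 ± 0.18 for microglia minus neurons (adjusted p = 1.84e-12), -2.37 ± 0.18 for microglia minus astrocytes (adjusted p = 1.89e-09) and -1.66 ± 0.18 for astrocytes minus neurons (adjusted p = 5.36e-07). Ackr1, which on venules and red cells binds many inflammatory chemokines, had 0.92, 2.04, 3.54, 0.14 and 0.12 TPM in microglia 1 to 5, 0.31 to 1.53 TPM in astrocytes, and 6.43, 7.84, 22.4, 6.07 and 8.25 TPM in neurons 1 to 5. Every neuron library lay above the rest. It was lower in microglia than in neurons by 2.31 ± 0.38 (adjusted p = 3.29e-05) and lower in astrocytes than in neurons by 2.39 ± 0.38 (adjusted p = 3.99e-05). Of the endothelial marker list, 10 of 13 genes were at or above 1 TPM in every microglia library, 12 in every astrocyte library and 13 in every neuron library. Its sums were those given above, highest in neurons, and the red cell gene Alas2 had 1.16 to 6.13 TPM in microglia, 4.15 to 10.3 TPM in astrocytes and 188 to 991 TPM in neurons. The part of endothelial cells in the neuronal values of Ackr1, Ackr3, Cxcl12 and Cx3cl1, and that of red cells in Ackr1, was not tested. Ackr1 also overlaps Cadm3 on the same strand.

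The 31 rows below the filter included 17 that never reached 1 TPM and 4 listed at 0 in every library: Cxcr1, Ccl26, Ccl21d and 1 row of Ccl21b. The highest of the 31 was the neutrophil attractant Cxcl2, with 1.85, 2.85, 12.1, 5.27 and 0.41 TPM in microglia 1 to 5, at most 0.72 TPM in astrocytes and at most 0.77 TPM in neurons. Like Ccl2, it was highest in microglia 3 and lowest in microglia 5. Just inside the filter, with 5 libraries at or above 1 TPM, lay Ccr1, Ccr2, Ccr6, Cxcr3 and the third row of Ccl27a. Just outside, with 4 such libraries each, lay Cxcl2 and a row of Ccl21a that reached 1.66 TPM in neurons. Receptors of lymphoid, gut and skin chemokines were among the rows below the filter, with highest values of 4.57 TPM for Ccr7, 2.53 TPM for Cxcr5, 2.04 TPM for Ccr9 and 1.15 TPM for Ccr10. Cxcr6, the receptor of Cxcl16, reached 1.77 TPM. Ccr1l1, a relative of Ccr1, reached 3.26 TPM in microglia, 0.36 TPM in astrocytes and 0.00 TPM in neurons.

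Ligands and receptors were set beside each other as 37 textbook pairs, by mean TPM and with no test. Both partners had passed the filter in 13 pairs, and 24 pairs had 1 or no partner that did. In 10 of the 13, ligand and receptor had their highest mean in the same cell type. For Ccr1, Ccr2 and Cxcr3 the place of the highest mean followed from the filter, which they passed through microglia libraries alone. In microglia these included Ccl2, Ccl7 and Ccl12 with Ccr2, Ccl3 and Ccl5 with Ccr1, and Cxcl10 with Cxcr3, and in the libraries labelled neuron the pair was Cxcl12 with Ackr3. In 3 pairs the partners peaked apart. Cx3cl1 averaged 40.5 TPM in neurons and Cx3cr1 1546 TPM in microglia, Cxcl12 averaged 91.7 TPM in neurons and Cxcr4 1.78 TPM in astrocytes, and Cxcl1 averaged 7.43 TPM in neurons and Cxcr2 1.55 TPM in microglia. The differences of Cxcr4, Cxcr2 and Cxcl10 between cell types were not called, and those of Cxcr2 and Cxcl10 depended on the scaling as given above. Libraries labelled neuron held more RNA of the endothelial markers than of the neuronal markers. The part of endothelial cells in their means of Cxcl12, Ackr3 and Cx3cl1 was not tested.

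The 18 microglial members varied unequally among the 5 microglia libraries. Their coefficient of variation had a median of 31.0%, beside 27.4% over the 991 genes called higher in microglia than in both other cell types. The largest values were 62.9% for Ccr6, 54.8% for Ccl7, 50.4% for Ccl2 and 42.4% for Ccl12, and the smallest was 11.8% for Ccl8. Microglia 4 was the highest library for 11 of the 18 members (61.1%) and for 68.9% of the 991 genes. Ccl2, Ccl7 and Ccl12 peaked instead in microglia 3, Ccl5 in microglia 2, Ccl17 in microglia 1, and Ccl8 and Ccl24 in microglia 5.

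Genes that respond to tissue dissociation, such as Fos, Jun and Zfp36, summed to 2455, 2371, 6403, 4251 and 1738 TPM in microglia 1 to 5, 878 to 1058 TPM in astrocytes and 2003, 2077, 3716, 3599 and 1682 TPM in neurons 1 to 5. This sum was highest in microglia 3 and lowest in microglia 5, as were Ccl2, Ccl7, Ccl12 and Cxcl2. In neurons it was highest in library 3, as were Cxcl1 and Ackr1. The sum was nearly as high in neuron 4, where Cxcl1 had 6.53 TPM and Ackr1 had 6.07 TPM, its lowest neuron value. The part of the dissociation response in these members was not tested. Within microglia the ratio of Ccl12 to Ccl2 was 7.06 to 12.5, that of Ccl7 to Ccl2 0.510 to 1.11, and that of Ccl8 to Ccl12 0.188 to 0.749.

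**Figure D5:**
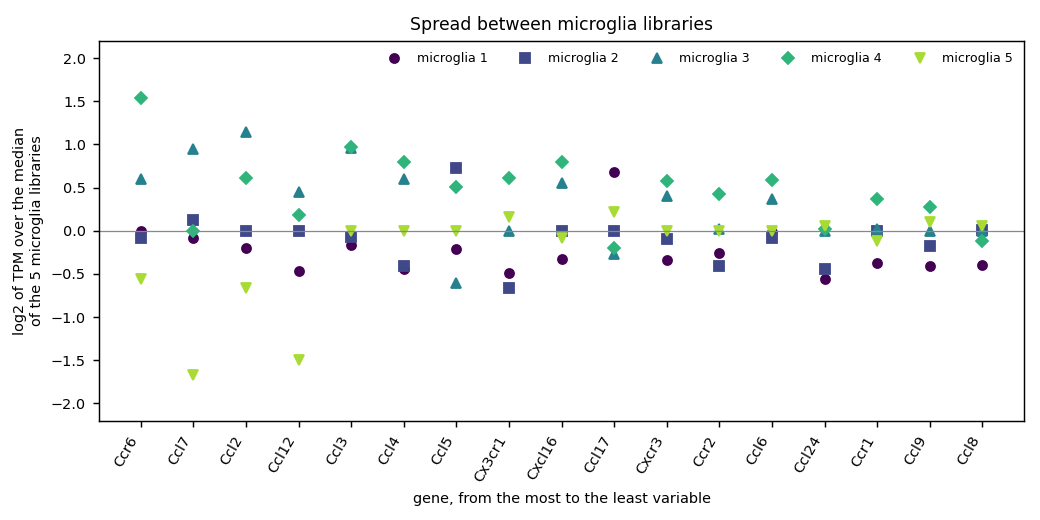
Log2 of TPM in each microglia library over the median of the 5, for 17 of the 18 members called higher in microglia than in both other cell types, ordered from the highest to the lowest coefficient of variation. Microglia 3 lies above and microglia 5 below the other libraries for Ccl7, Ccl2 and Ccl12, whereas the 5 points of Ccl8 lie close together.

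Of 15 genes of the wider chemokine system outside the set, 12 were tested. For microglia minus neurons 6 were higher and 4 lower, beside 9.74% and 29.5% of all tested genes, with a median of 0.79 beside -0.48 over all genes. For microglia minus astrocytes 7 were higher and 2 lower, beside 10.2% and 32.3%, with a median of 1.04 beside -0.57. For astrocytes minus neurons 0 were higher and 5 lower, beside 12.7% and 12.9%, with a median of -0.48 beside 0.03. Pf4, the CXC chemokine stored in platelets and also made by border macrophages, had 892, 996, 1363, 974 and 789 TPM in microglia 1 to 5, 25.2 to 49.4 TPM in astrocytes and 20.9 to 41.1 TPM in neurons. Its microglia mean of 1003 TPM lay between those of Cx3cr1, 1546 TPM, and Ccl6, 749.8 TPM. Cd74, a receptor of the cytokine Mif, averaged 596 ± 66.6 TPM in microglia, 9.68 ± 4.44 TPM in astrocytes and 39.7 ± 18.9 TPM in neurons. Dpp4, a protease that trims chemokines, ran the other way with 0.46 ± 0.20 TPM in microglia, 5.14 ± 3.06 TPM in astrocytes and 12.9 ± 4.46 TPM in neurons (SD, n = 5 each).

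Of 52 genes of chemokine receptor signalling (G protein subunits, regulators and kinases downstream of the receptors), 51 were tested. Read against the same shares and medians over all genes, 19 were higher and 9 lower for microglia minus neurons (37.3% and 17.6% of the 51, median 0.18). For microglia minus astrocytes 21 were higher and 5 lower (41.2% and 9.8%, median 0.66). For astrocytes minus neurons 2 were higher and 12 lower (3.92% and 23.5%, median -0.45). Rgs10, which ends G protein signalling, averaged 2181 TPM in microglia, against 16.3 TPM in astrocytes, and differed by 7.01 ± 0.18. Rgs1, of the same family, had 102.5, 112, 236, 186 and 35.8 TPM in microglia 1 to 5 and at most 0.30 TPM in astrocytes. It was highest in microglia 3 and lowest in microglia 5, as were Ccl2, Ccl7 and Ccl12. Rgs2, of the same family, averaged 651 TPM in microglia, against 9.60 TPM in astrocytes, and differed by 5.91 ± 0.23. The G protein gamma subunit Gng11 was lower in microglia than in neurons by 4.10 ± 0.35.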

How the data were processed

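The values are TPM per gene for 15 polyA RNA libraries, as deposited by the authors in 1 table, and every column summed to 1000000 TPM within rounding. Per the labels' protocols, RNA was purified on columns, cDNA was amplified by PCR, and libraries were sequenced as pairs of 150 nt reads at an average of 30000000 reads per sample. The genome was mm10 and the tools listed are RSEM 1.2.28, STAR 2.7.1a, DESeq2 1.36.0 and Trim Galore 0.6.4, per the submitters' processing notes. RSEM shares reads among similar transcripts, so rows of near-identical copies are uncertain, and the strandedness of counting is not given in the sources used here. All 15 columns were used, and no 2 libraries held identical values.

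Groups follow the labels. Genes at or above 1 TPM in at least 5 libraries (13351 of 20610) were tested on log2(TPM + 1), a scale that understates changes of low genes. In limma 3.58.1 (R 4.3.3) 1 model with a mean per cell type and trended, moderated variances was fitted to all 15 libraries. A difference was called at a Benjamini-Hochberg adjusted p below 0.05 over all tested genes and an absolute log2 difference of at least 1. The code for sums, sequences and figures ran in Python 3.11.15, and the fit was checked on simulated data. Members that passed the filter are named with their values, those below it by their highest value or count, and other lists by up to 4 genes with the largest differences. Genes named beyond that rule (Nkg7, S100a8, S100a9, Alas2, Adam10, Adam17, Cklf, Mif, Ccrl2 and the genes named as examples of lists) were chosen after their values were seen. A few items are not reported here, though counts over the whole set include them. The members, lists and tests were chosen with earlier results of these data known.

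For 60 of the 67 rows, coordinates on mm10 came from GENCODE vM21. Promoters came from RefSeq on GRCm38.p6, matched by symbol. The labels number the libraries of each cell type 1 to 5 without stating a pairing. After removal of group means, libraries of 1 number correlated at 0.216 to 0.382 between microglia and neurons in 5 of 5 pairs. Between microglia and astrocytes (-0.011 to 0.249) and between astrocytes and neurons (-0.033 to 0.233) 3 of 5 pairs passed 0.1. Correlations between libraries of different numbers were not computed, so these values cannot show whether the numbers pair libraries. The main fit held no block for the replicate number, and calls with the block are given below. The settings tried besides were quantile normalization, median-of-ratios scaling, a pseudocount of 0.1, a filter of 5 TPM, no filter, fits of 2 groups, no variance trend, no fold threshold, the replicate number as a block, each library left out in turn, 3 sets of libraries left out together, and an exact permutation test.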

Additional observations from a re-analysis of the deposited data

Results flagged for a closer look

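Among 108 groups of 5 libraries (36 rows in 3 cell types), 11 held 1 library far from the other 4 by Dixon's criterion, where chance gives about 1 in 20. Of these, 4 are groups in which the other 4 libraries were listed at 0: the Ccl19 copy ENSMUSG00000094661 with 10.4 TPM in microglia 3, the Ccl27a copy ENSMUSG00000095247 with 3.66 TPM in microglia 3 and 1.76 TPM in astrocyte 1, and Ccl27b with 1.21 TPM in microglia 4.

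Neuron 2 had 89.5 TPM of Ccl5, while the next neuron library had 36.9 TPM. Astrocyte 1 had 2.69 TPM of Ccl5, the lowest of its group, while the next had 4.92 TPM. Library 3 stood out for Cxcl1 in both microglia and neurons, with 2.74 TPM against at most 1.02 TPM in the other microglia libraries and 18.3 TPM against at most 6.53 TPM in the other neuron libraries. Neuron 3 also had 22.4 TPM of Ackr1, while the next neuron library had 8.25 TPM. Neuron 5 had 16.2 TPM of Cxcl14, while the next had 10.8 TPM, and neuron 1 had 0.94 TPM of Ccl9, while the next had 0.25 TPM.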

How the results depend on the processing

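Of 68 called differences of members, 56 kept their call under each alternative run and 12 lost it under at least 1, and none of the 68 changed sign. The 12 were Ccl11, Ccl25, Ccl4, Ccl17, Cxcl1, Ccl27b and the 3 rows of Ccl27a in 1 or 2 comparisons each. The count lower in microglia than in astrocytes was 8, and 5 under median-of-ratios scaling or quantile normalization. The count higher in astrocytes than in neurons was 3, and was 6 with a pseudocount of 0.1, 5 with no fold threshold and 5 without the libraries numbered 1 and 2. With each library left out in turn, the counts were 18 to 19 (higher) and 11 to 13 (lower) for microglia against neurons, 18 to 18 and 6 to 9 for microglia against astrocytes, and 3 to 5 and 6 to 10 for astrocytes against neurons. The cause of these shifts was not tested.

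With the replicate number as a block, counts were 18 higher and 12 lower for microglia minus neurons, 18 and 9 for microglia minus astrocytes, and 3 and 10 for astrocytes minus neurons. The block added the Ccl19 copy ENSMUSG00000094661 in both microglia comparisons and changed no other call. For the Ccl27a row ENSMUSG00000073888 the adjusted p with the block was 0.000338 for microglia minus astrocytes and 0.000836 for astrocytes minus neurons. The labels state no pairing of these libraries.

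Among differences described that were not called in the main fit but were called under at least 1 alternative, signs changed for 2. Other differences that were not called are outside this count. Cxcl14 for microglia minus neurons was 0.026 under median-of-ratios scaling, and Cxcr4 for microglia minus astrocytes was 0.10 under quantile normalization. The exact permutation test of 5 against 5 libraries cannot go below p = 0.00794. Depth is unknown, so whether rows below 1 TPM were absent or only undetected cannot be said.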

Other observations

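Further genes of the chemokine system lie outside the family by name. Adam10 and Adam17, proteases that shed Cx3cl1 and Cxcl16 from the membrane, averaged 17.3 ± 4.74 and 18.2 ± 5.14 TPM in microglia, 9.14 ± 3.395 and 8.13 ± 2.46 TPM in astrocytes, and 11.9 ± 2.07 and 7.71 ± 0.61 TPM in neurons (SD, n = 5 each). Adam17 was called higher in microglia than in both other cell types, and Adam10 was called in no comparison. Cmklr1, the receptor of the attractant chemerin, averaged 21.0 ± 4.33 TPM in microglia, 0.13 ± 0.04 TPM in astrocytes and 1.37 ± 0.45 TPM in neurons. Cklf, a chemokine-like factor, averaged 148 ± 30.1 TPM in microglia, 55.4 ± 3.57 TPM in astrocytes and 31.5 ± 9.55 TPM in neurons. Mif, a cytokine that also binds Cxcr4 and Cxcr2, averaged 594 ± 104 TPM in microglia, 938 ± 161 TPM in astrocytes and 1395 ± 269 TPM in neurons. Ccrl2, which binds chemerin without signalling, had 10.2, 11.2, 25.7, 22.6 and 9.13 TPM in microglia 1 to 5, 5.53 to 8.83 TPM in astrocytes and 18.9 to 30.0 TPM in neurons. Its microglia values were highest in libraries 3 and 4, like those of Ccl3 and Ccl4.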
